A study of Mus musculus with 2 samples.

Results

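The adipokine genes examined here were Lep, Adipoq, Retn, Rarres2, Nampt, Apln, Lcn2 and Metrnl, which encode 8 proteins that fat tissue releases. They were chosen by gene symbol, as every probe set whose single annotated symbol is one of these names. This gave 14 probe sets for 8 genes, out of 45037 probe sets and 18193 named genes on the array. Nampt, Rarres2 and Metrnl had 3 probe sets each and the other 5 genes had 1 each. The tissue was epididymal white adipose tissue, a visceral fat pad of the mouse, from male C57BL/6 animals. One sample came from a mouse given a high-fat diet for 7 weeks and the other from a mouse kept on normal chow, with diets begun at 9 weeks of age. Each diet had 1 array without a replicate. The spread between animals is therefore unknown, no test of the diet was possible, and every difference is one between these 2 samples.

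Adipokines are hormones and cytokines by which fat tissue signals to the brain, liver, muscle, vessels and immune cells. Leptin, the product of Lep, is released in proportion to fat stores and acts on the hypothalamus to restrain feeding, whereas adiponectin, the product of Adipoq, promotes insulin sensitivity in liver and muscle. Both are made almost entirely by fat cells, as is resistin in mice, while chemerin, apelin, lipocalin 2, meteorin-like and Nampt are also made by other cell types. In tissue RNA, fewer cells of a type and less RNA per cell cannot be told apart.

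Each probe set summarises several short probes into a single intensity, given here on the linear scale as deposited. The 40th percentile of each array, an intensity of 27.9 on the high-fat diet array and 28.6 on the chow array, was taken as a floor for weak signal. Log2 was taken after setting weaker values to the floor, and probe sets that lay under it on both arrays were called not measured. Differences are in log2 intensity, with chow subtracted from the high-fat diet. To gauge probe error, probe sets of the same gene were compared, and their diet differences had a pooled SD of 0.20 where the mean intensity was above 400, 0.29 between 100 and 400 and 0.37 under 100. This SD holds no difference between animals. Fabp4, a fatty acid carrier of fat cells, had the brightest probe set on both arrays, at 11559.7 on the high-fat diet and 10726.6 on chow. Its other probe sets were dimmer, and the brightness of a probe set does not measure the share of fat cells.

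Promoters of Lep, Adipoq and Nampt are shown because these genes had, in that order, a higher, a nearly equal and a lower intensity on the high-fat diet. RefSeq's table for GRCm38.p6 held promoters of 7 of the 8 genes, those other than Rarres2. Each line gives the 250 bases before the annotated start site, 5′ to 3′ on the coding strand. Capitals mark 3 motifs searched on both strands, namely TTGCGCAA, a core recognised by C/EBP factors, CCAAT, and the GC box GGGCGG.
Lep, chr6:29059971-29060220, plus strand: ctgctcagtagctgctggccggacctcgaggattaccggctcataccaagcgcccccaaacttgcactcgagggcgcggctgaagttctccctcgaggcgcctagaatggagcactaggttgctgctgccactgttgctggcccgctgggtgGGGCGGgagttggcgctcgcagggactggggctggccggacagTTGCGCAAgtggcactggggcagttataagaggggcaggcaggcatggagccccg
Adipoq, chr16:23146286-23146535, plus strand: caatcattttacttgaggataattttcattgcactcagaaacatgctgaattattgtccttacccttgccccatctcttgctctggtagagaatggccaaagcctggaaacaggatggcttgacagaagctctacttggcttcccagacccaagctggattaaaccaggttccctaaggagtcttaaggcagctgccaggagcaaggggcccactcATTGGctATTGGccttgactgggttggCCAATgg
Nampt, chr12:32820085-32820334, plus strand: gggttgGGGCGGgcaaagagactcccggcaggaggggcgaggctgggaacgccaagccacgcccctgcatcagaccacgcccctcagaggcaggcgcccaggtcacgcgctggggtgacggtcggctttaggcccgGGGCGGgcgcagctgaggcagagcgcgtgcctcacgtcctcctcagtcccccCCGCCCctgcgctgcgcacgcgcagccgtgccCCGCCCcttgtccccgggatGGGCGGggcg

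The Lep window held TTGCGCAA once, beginning 55 bases before the start site, and GGGCGG once, at 98 bases. TTGCGCAA was in 0.164% of the 32851 promoter windows of this length, and in none of the other 6 windows of adipokine genes. The Adipoq window held CCAAT 3 times, at 34, 27 and 7 bases, 2 of them read on the opposite strand. CCAAT was in 33.9% of all windows and in no other window of the adipokine genes. The Nampt window held GGGCGG 5 times and was 75.6% G or C, against 65.6% in Lep, 48.8% in Adipoq and 53.2% over all windows. GGGCGG was in 32.7% of all windows, among them those of Metrnl, with 4 copies, and of Apln and Lcn2, with 1 each. These are matches of letters, and the arrays measured no binding at any of them.

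As a group, the adipokine genes did not move one way. By the probe set with the highest mean log2 intensity, 5 of the 8 were higher on the high-fat diet and 3 lower, where 46.8% of the 14066 measured genes were higher and 52.9% lower. The median difference of the 8 was 0.10, beside -0.02 over all measured genes. With the arrays scaled to reference genes, which moved the median of all genes to -0.18, only Lep, Rarres2 and Metrnl were higher and the median of the 8 was -0.05. The 12 measured reference genes did not agree among themselves, with 9 higher and 3 lower, from -0.285 for Sdha to 0.552 for Hprt. After quantile normalization or lowess centring 4 of the 8 adipokine genes were higher and 4 lower. None of the 8 genes differed by 2-fold or more, a size reached by 2.49% of measured genes. At 1.5-fold or more there were 3 of 8, beside 12.1% of measured genes, and between 1 and 3 under the alternatives. Lep was under that size when scaled to reference genes, after quantile normalization and after lowess centring, Rarres2 with each of the 3 other choices of probe set, and Nampt with the probe set of smallest difference. Rarres2 and Lep were the 2 higher ones, a direction and size shared by 5.74% of measured genes, and Nampt the lower one, shared by 6.33%. Of the 14 probe sets 13 were measured, and 6 of these were higher and 7 lower, where 46.8% of the 29356 measured probe sets were higher and 52.9% lower.

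**Figure D1:**
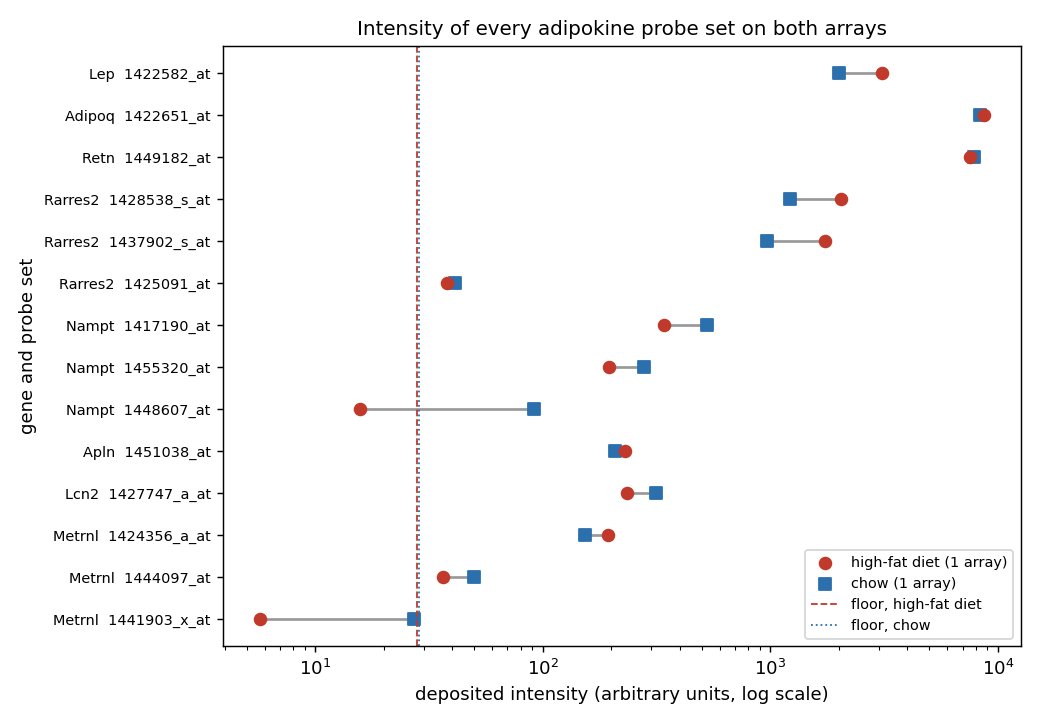
Deposited intensity (log axis) of all 14 adipokine probe sets, 1 row each, with circles for the high-fat diet array, squares for the chow array and vertical lines for the 2 floors. The widest gaps between diets are at Nampt 1448607_at and Metrnl 1441903_x_at, whose high-fat diet values of 15.7 and 5.7 lie under the floor.

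Lep, the leptin gene, was higher on the high-fat diet. Its only probe set had an intensity of 3099.8 on the high-fat diet and 2001.2 on chow, a difference of 0.63 or 1.55-fold. The gap was 3.08 times the probe set SD of its intensity band, and 6.65% of the 3201 measured probe sets in that band differed by at least as much in either direction. On the high-fat diet array Lep had rank 228 of all probe sets, counted from the brightest, and on the chow array rank 425. Its difference stayed positive under each of the 10 other scalings, floors and probe set choices, between 0.48 and 0.66. Since a single probe set carries Lep, no second reading of the gene exists on these arrays.

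Adipoq and Retn were bright on both arrays and differed little. Adipoq had 8718.4 on the high-fat diet and 8372.1 on chow, with rank 13 and rank 12. Its difference of 0.06 was 0.29 times the probe set SD and turned to -0.10 when scaled to reference genes, -0.07 after lowess centring and -0.02 after quantile normalization. Retn, which encodes resistin, a cysteine-rich hormone that opposes insulin action in mice, had 7523.8 on the high-fat diet and 7887.3 on chow. Its ranks were 26 and 17 and its difference -0.07, or 0.33 times the SD. Of the measured probe sets in this band, 80.8% differed by at least as much as Adipoq and 78.1% by at least as much as Retn. Both genes lay near the upper end of the intensity range, and compression of bright signals was not tested.

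**Figure D2:**
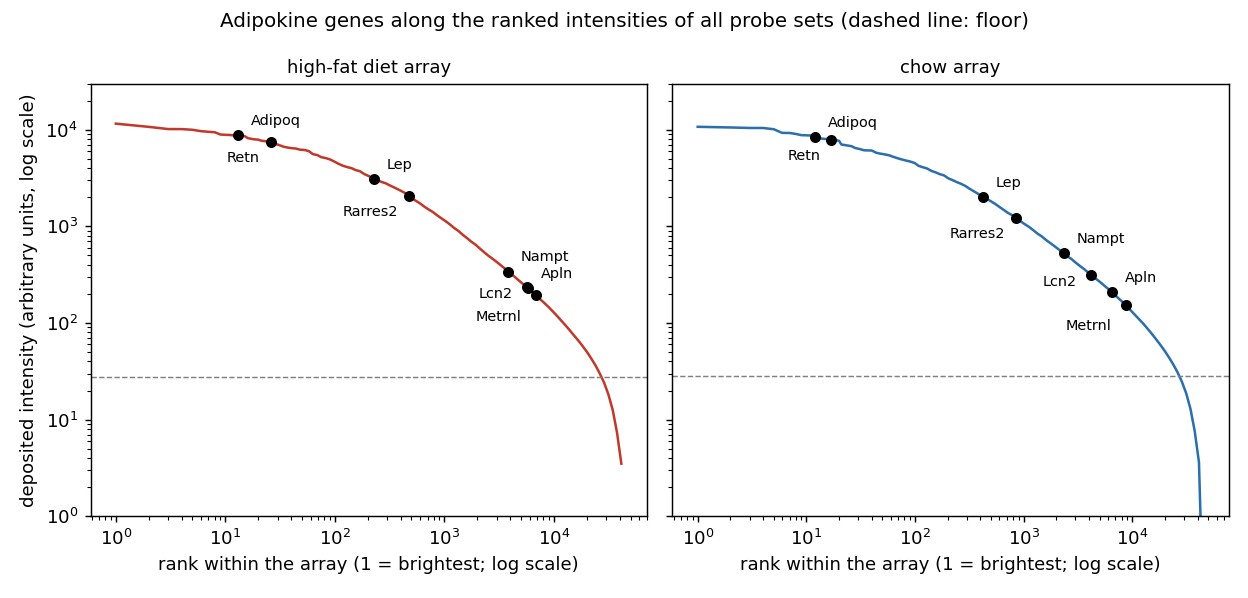
Intensity of all probe sets against their rank within the array (both axes log), with the high-fat diet array on the left and the chow array on the right; points mark the brightest probe set of each adipokine gene and the dashed line the floor. Adipoq and Retn lie among the 26 brightest probe sets on both arrays, and the other 6 genes lie further down, all above the floor.

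A rank depends on how well the probes of a set hybridise as well as on the amount of transcript, so ranks of different genes do not give their relative abundance. All 8 genes had their brightest probe set above the floor on both arrays and at or above the 80.7th percentile of the array. Ranks of the same probe set on the 2 arrays can be set side by side. On the high-fat diet array and then the chow array, Rarres2 had ranks 478 and 857, Nampt 3829 and 2334, Lcn2 5686 and 4169, Apln 5790 and 6526, and Metrnl 6784 and 8674. The rank gaps ran the same way as the intensity differences for these 5 genes, but ranks come from the same intensities and are no separate reading.

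Rarres2 encodes chemerin, which is secreted as an inactive precursor, attracts immune cells through Cmklr1 once cleaved, and acts on fat cell development. Its brightest probe set, 1428538_s_at, had 2045.3 on the high-fat diet and 1223.9 on chow, a difference of 0.74 or 1.67-fold. The second, 1437902_s_at, had 1734.2 on the high-fat diet and 970.1 on chow, a difference of 0.84 or 1.79-fold. These gaps were 3.62 and 4.09 times the probe set SD of the band. The third, 1425091_at, was weak at 38 on the high-fat diet and 41.3 on chow, 1.36 and 1.44 times the floor, and differed by -0.12. Thus both bright probe sets of Rarres2 were higher on the high-fat diet and the dim one was nearly equal. In probe set names of this platform, the ending _s_at marks probes that can match more than 1 transcript, and the share of such signal in the 2 bright sets was not tested.

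Nampt was the gene of the 8 that was lower by the widest margin, and the only one with several probe sets that all differed the same way. It encodes nicotinamide phosphoribosyltransferase, the rate-limiting enzyme of NAD salvage, which fat cells also release and which has been called visfatin. The brightest probe set, 1417190_at, had 339.6 on the high-fat diet and 528 on chow, a difference of -0.64 or 1.55-fold lower. The second, 1455320_at, had 196.4 on the high-fat diet and 277.8 on chow, a difference of -0.50 or 1.41-fold lower. The third, 1448607_at, had only 15.7, under the floor, on the high-fat diet and 91.3 on chow, so it was at least 3.27-fold lower. This was the only adipokine probe set with a gap of 2-fold or more, beside 2.62% of all measured probe sets. The annotation builds the first and the third from the same sequence record, yet their gaps differ by more than 1 log2 unit, and the weaker signal of the third makes its size less certain. Among all genes with 2 or more measured probe sets, 46.6% had all of them in one direction.

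**Figure D3:**
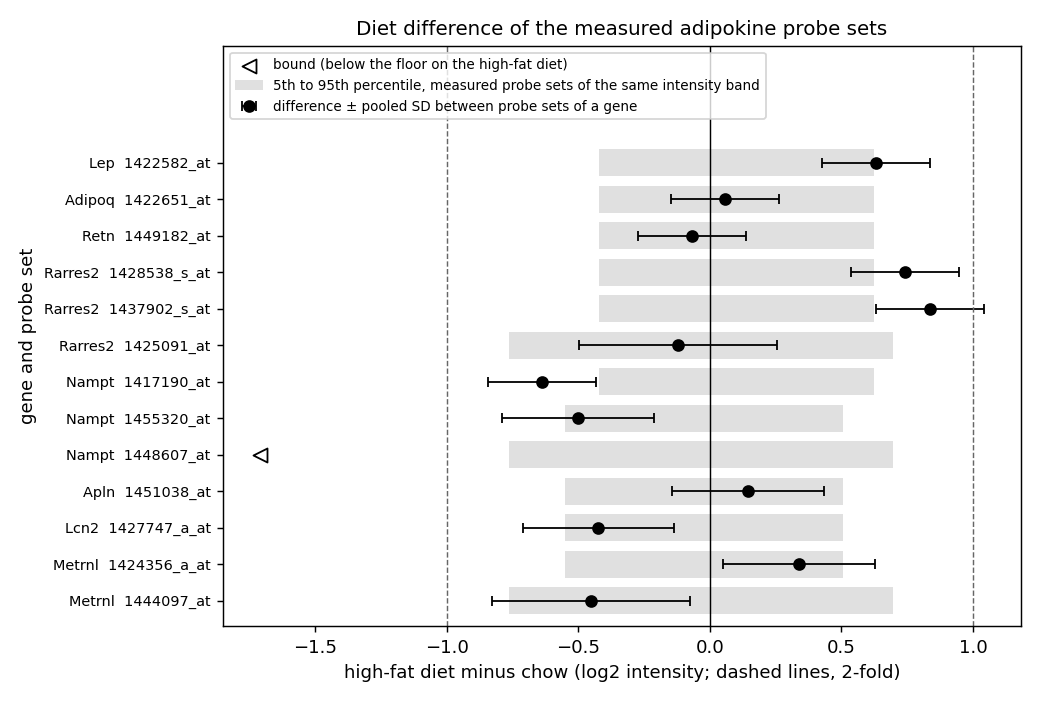
High-fat diet minus chow difference (log2 intensity) of the 13 measured adipokine probe sets; bars on the points are the pooled SD between probe sets of a gene and grey boxes the 5th to 95th percentile of measured probe sets of the same intensity band. Both bright Rarres2 probe sets, the brightest Nampt probe set and, as an open triangle for a bound, the third Nampt probe set lie outside their grey boxes, and Lep lies at the edge of its box.

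The other 3 genes differed by less than Lep, Rarres2 and Nampt. Apln, which encodes apelin, a peptide that acts on vessels and heart through Aplnr, had 229.8 on the high-fat diet and 207.8 on chow. Its difference of 0.15 was 0.50 times the probe set SD and turned to -0.01 when scaled to reference genes. Lcn2 encodes lipocalin 2, which binds iron-carrying siderophores and is made by fat cells, neutrophils and inflamed epithelia. Lcn2 had 234.1 on the high-fat diet and 313.8 on chow, a difference of -0.42 or 1.34-fold lower. This was 1.46 times the SD, and 17.4% of the 9011 measured probe sets of its band differed by at least as much.

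Metrnl encodes meteorin-like, a secreted protein of fat, muscle and barrier tissues, and its probe sets did not share a direction. The brightest, 1424356_a_at, had 194 on the high-fat diet and 153.4 on chow, a difference of 0.34. The second, 1444097_at, had 36.5 on the high-fat diet and 49.9 on chow, a difference of -0.45. The third, 1441903_x_at, did not reach the floor on either array, at 5.7 on the high-fat diet and 27.3 on chow, and gave no fold. The first 2 gaps were 1.17 and 1.20 times their band's SD, in opposite directions, so these arrays give Metrnl no settled direction.

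None of the receptors and binding partners of these proteins differed by 2-fold or more, and 1, Lrp2, by 1.5-fold or more. Among all measured genes 1.16% were 2-fold or more higher and 1.33% lower, and 5.74% were 1.5-fold or more higher. All 13 listed genes were measured, and by any amount 11 were higher on the high-fat diet and 2 lower, where 46.8% of all measured genes were higher and 52.9% lower. The median difference of the 13 was 0.15, but scaled to reference genes 6 were higher and 7 lower, with a median of -0.01. Lepr, the leptin receptor, had 74.5 on the high-fat diet and 67.8 on chow, a difference of 0.14, in the only one of its probe sets above the floor. The adiponectin receptor genes Adipor1 and Adipor2 differed by 0.36 and 0.02. Adipor1 had 920.8 on the high-fat diet and 718.6 on chow in its brightest probe set, while its dimmest had 64.4 on the high-fat diet and 78.4 on chow and went the other way, and Adipor2 had 3298.8 on the high-fat diet and 3255.4 on chow. Cdh13, the adiponectin-binding T-cadherin, named here after its values were seen, had 388.9 on the high-fat diet and 274.6 on chow, 1.42-fold higher. Its other measured probe set had 183.9 on the high-fat diet and 176.7 on chow, a difference of 0.06.

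Cmklr1, the signalling receptor of chemerin, had 446.1 on the high-fat diet and 402.6 on chow, a difference of 0.15, while its dim probe set had 16.7, under the floor, on the high-fat diet and 40.8 on chow. Aplnr, the apelin receptor, had 380.9 on the high-fat diet and 328.4 on chow, and both of its probe sets were higher, by 0.21 and 0.50. Slc22a17, described as a receptor of lipocalin 2, differed by 0.16, at 167.7 on the high-fat diet and 149.6 on chow. The highest difference of the list was that of Lrp2, a large endocytic receptor that binds leptin and lipocalin 2, at 0.62 or 1.53-fold, with 135.1 on the high-fat diet and 88.1 on chow. Its other 2 probe sets differed by 0.06 and -0.76. The lowest was that of Kit, a receptor tyrosine kinase, at -0.20.

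Genes for the assembly, cleavage and breakdown of these proteins held 1 gene 2-fold higher and 1 gene 2-fold lower among 10 measured of 14 listed, beside 1.16% and 1.33% of all measured genes. Mme encodes neprilysin, a membrane peptidase that degrades apelin among other peptides. It had 351.3 on the high-fat diet and 163.1 on chow, 2.15-fold higher, with a difference of 0.78 in the second probe set. It was under 2-fold in 3 of 10 alternatives, namely scaling to reference genes, the mean of its probe sets and the one with the smallest difference. Mmp9, a matrix metalloproteinase that in humans forms a complex with lipocalin 2, had 65.6 on the high-fat diet and 164.9 on chow, 2.51-fold lower. Its other probe set, with a high-fat diet value under the floor, gave a bound of -0.47, and the gene was under 2-fold in the 2 alternatives that use that probe set. Elane and Ctsg, neutrophil proteases that cleave prochemerin, and F12, a coagulation factor, were below the floor on both arrays, with Elane at 15.9 on the high-fat diet and 17.1 on chow and Ctsg at 2.2 on the high-fat diet and 2.1 on chow. The median difference of the list was -0.02.

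Of 17 measured transcription factors known to act on adipokine genes 10 were lower and 7 higher, a share of lower genes near the 52.9% of all measured genes, and the median difference was -0.06. Klf15, a factor of fat cell and fasting metabolism, had 191.6 on the high-fat diet and 496.7 on chow, 2.59-fold lower in its only probe set. Arntl, a core clock factor, had the highest difference, 0.58, but its other probe set differed by -0.55. In the list of leptin signalling, 12 of 14 were lower and the median was -0.16. Among the 12, the brightest probe sets of Stat5b and Ptpn11 were nearly equal between diets, at 166.1 and 901.9 on the high-fat diet against 166.2 and 904 on chow. The other probe set of Stat5b differed by -0.81, and those of Ptpn11 by 0.38 and 0.21. With array-median scaling 10 of 14 were lower, after quantile normalization or lowess centring 11, and scaled to reference genes all 14. Pik3r1, a regulatory subunit of phosphoinositide kinase, was the only one of these 14 that was 2-fold or more lower, beside 1.33% of all measured genes. It had 700.1 on the high-fat diet and 1528 on chow. Its other 3 probe sets differed by -0.83, -0.93 and -1.29, of which only the last reached 2-fold. Lepr had the highest difference of that list.

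Enzymes of NAD metabolism other than Nampt showed no gap of 2-fold or more. Of 15 listed genes 12 were measured, of which 7 were higher, 4 lower and 1 equal, where 46.8% of all measured genes were higher and 52.9% lower. The median difference of the list was 0.04, and -0.11 when scaled to reference genes. Nt5e, an ectonucleotidase of nucleotide breakdown, was lowest at -0.65, with 41.3 on the high-fat diet and 64.9 on chow. Its other measured probe set, near the floor at 29.9 on the high-fat diet and 33.7 on chow, differed by -0.17. Qprt, of NAD synthesis from tryptophan, was highest at 0.39, and its other probe set went the other way. By the brightest probe set of each gene, the difference of Nampt, -0.64, was thus close to that of Nt5e and below those of the other measured genes of the list.

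**Figure D4:**
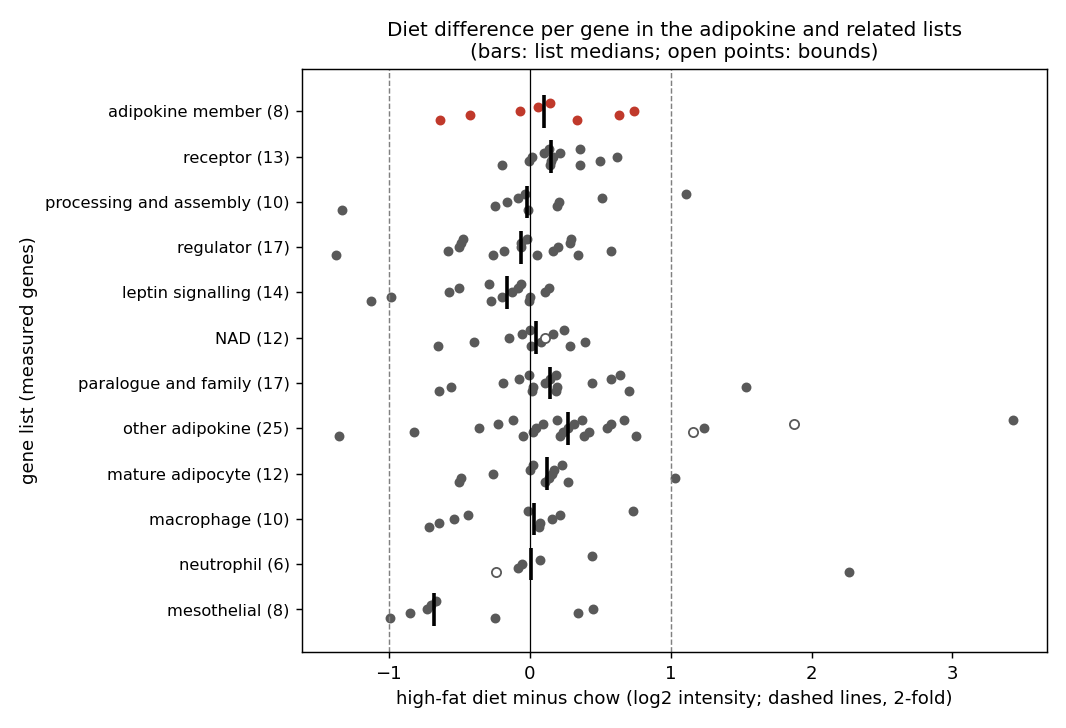
High-fat diet minus chow difference (log2 intensity) of each measured gene in the adipokine list and 11 related lists, with 1 point per gene, a bar at each list's median and open points for bounds. The 8 adipokine genes lie within 2-fold, whereas Sfrp5, at 3.43, stands at the far right of the list of other adipokines.

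Relatives of the adipokine genes were mostly close between diets, with 12 of 17 measured genes higher and 5 lower, where 46.8% of all measured genes were higher and 52.9% lower. The median of the 17 was 0.14, which became -0.01 when scaled to reference genes. Orm1, an acute-phase lipocalin, had 1438.5 on the high-fat diet and 497.6 on chow, 2.89-fold higher in its only probe set. Its near-identical relative Orm2 had 32.2 on the high-fat diet and 31.9 on chow, and probes of such pairs may share signal. Ptgds, a lipocalin that makes prostaglandin, was lowest at -0.64. The remaining genes of this paragraph were picked for their kinship after their values were seen. Retnla, the measured relative of resistin, differed by 0.18, at 6181.8 on the high-fat diet and 5443.4 on chow. Metrn, the paralogue of Metrnl, had 216.4 on the high-fat diet and 132.7 on chow, 1.63-fold higher, and its other probe set, under the floor on chow, differed by at least 0.52. Of the C1q/TNF-related genes, which share the globular domain of adiponectin, 6 were measured, 4 higher and 2 lower, between -0.56 and 0.64.

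Other secreted products of fat spanned differences from -1.35 to 3.43. Among 25 measured of 35 listed, 19 were higher on the high-fat diet and 6 lower, where 46.8% of all measured genes were higher, and the median was 0.27 (0.12 when scaled to reference genes). By 2-fold or more 4 were higher and 1 lower, beside 1.16% and 1.33% of all measured genes. With the floor at the 60th percentile 2 were higher by that size, since Npy and Fgf21 were then under 2-fold. Sfrp5, a Wnt inhibitor, had 1130.8 on the high-fat diet and 105.1 on chow. Its second probe set read 453.7 on the high-fat diet and 124.9 on chow, a difference of 1.86. Angptl4, a lipoprotein lipase inhibitor, had 2467.9 on the high-fat diet and 1046.3 on chow, in a probe set with the ending _s_at. Its other probe set lay under the floor on both arrays, at 13.9 on the high-fat diet and 9.4 on chow. Npy and Fgf21, genes of a neuropeptide and a metabolic hormone, had 104.7 and 63.9 on the high-fat diet, against 16.4 and 13.1, both under the floor, on chow. They were at least 3.66-fold and 2.23-fold higher. Agt, the precursor of angiotensin, had 488.7 on the high-fat diet and 1248.2 on chow, 2.55-fold lower.

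With 2 arrays the only pattern a gene can share is its single diet difference. A near match among 49 candidates was likely in advance, so these pairs show no shared regulation. The gaps to the closest genes were at most 0.06, under the smallest probe set SD of 0.20, so which candidate is closest is not settled. Among 49 genes of the lists of other adipokines, regulators and mature adipocyte markers above the floor on both arrays, the gene closest to Lep was Fstl1, a secreted glycoprotein, at 0.67, beside 0.63 for Lep. The closest to Rarres2 was Cthrc1, a secreted matrix-related protein, at 0.75, but from weak signals of 54 on the high-fat diet and 32 on chow, near the floor. The closest to Nampt was Foxo1, an insulin-regulated transcription factor, at -0.58. Rela, at 0.05, was closest to Adipoq and Stat3, at -0.07, to Retn. Sp1, at -0.48, was closest to Lcn2, Plin4, at 0.13, to Apln, and Clock, at 0.34, to Metrnl. Probe sets of some of these genes disagreed, since the other 3 of Clock differed by -0.24 to -0.46, a second one of Sp1 by 0.01, and those of Stat3 went both ways.

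Markers of the cells that can make adipokines were read on the same arrays, where 46.8% of all measured genes were higher and 52.9% lower. The 12 measured markers of mature adipocytes other than the 8 genes summed to 61430.6 on the high-fat diet and 57886.9 on chow, with 9 higher, 3 lower and a median of 0.12, which was -0.03 when scaled to reference genes and -0.01 after quantile normalization. Aqp7, a glycerol channel, was highest at 1.03, with 0.59 in its other probe set, and Slc2a4, the insulin-regulated glucose transporter, lowest at -0.50. The 10 macrophage markers summed to 6914.4 on the high-fat diet and 6889.1 on chow, with 5 higher and 5 lower. They ran from -0.72 for Trem2 to 0.73 for Itgax. Trem2 was near the floor, at 33.7 on the high-fat diet and 55.4 on chow, and its other probe set was not measured. Of 10 neutrophil markers 6 were measured, summing to 459.4 on the high-fat diet and 318.2 on chow, with 3 higher, 3 lower and a median of 0.01. S100a8, at 191.3 on the high-fat diet and 39.7 on chow, carried this gap, and the other 5 summed to 268.1 on the high-fat diet and 278.5 on chow. The only probe set of S100a8 has the ending _s_at. S100a9, with a high-fat diet value under the floor, gave a bound of -0.24. Mesothelial markers, from the lining cells of the pad, were lower for 6 of 8 genes, with a median of -0.68. They summed to 1198 on the high-fat diet and 1655.7 on chow, from -0.99 for Krt19 to 0.45 for Msln. At 1.5-fold or more 5 of them were lower and 0 higher, beside 6.33% and 5.74% of all measured genes.

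Markers of fibroblasts and progenitors summed to 11002.3 on the high-fat diet and 10428.2 on chow over 8 measured genes, with 6 higher, 2 lower and a median of 0.18, which was 0.03 when scaled to reference genes. They ran from -0.66 for Pdgfra, with 0.19 in its other measured probe set, to 0.92 for Mfap5. By 1.5-fold or more 3 were higher and 1 lower, beside 5.74% and 6.33% of all measured genes. The 6 endothelial markers summed to 1751.3 on the high-fat diet and 1657.9 on chow, from -0.59 for Flt1 to 0.30 for Cldn5. Of 6 epididymis markers only Lcn8 and Adam7 were measured, at 32.9 and 38.4 on the high-fat diet against 55.1 and, under the floor, 13.9 on chow. The part of the cell make-up in the differences of the adipokine genes was not tested.

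**Figure D5:**
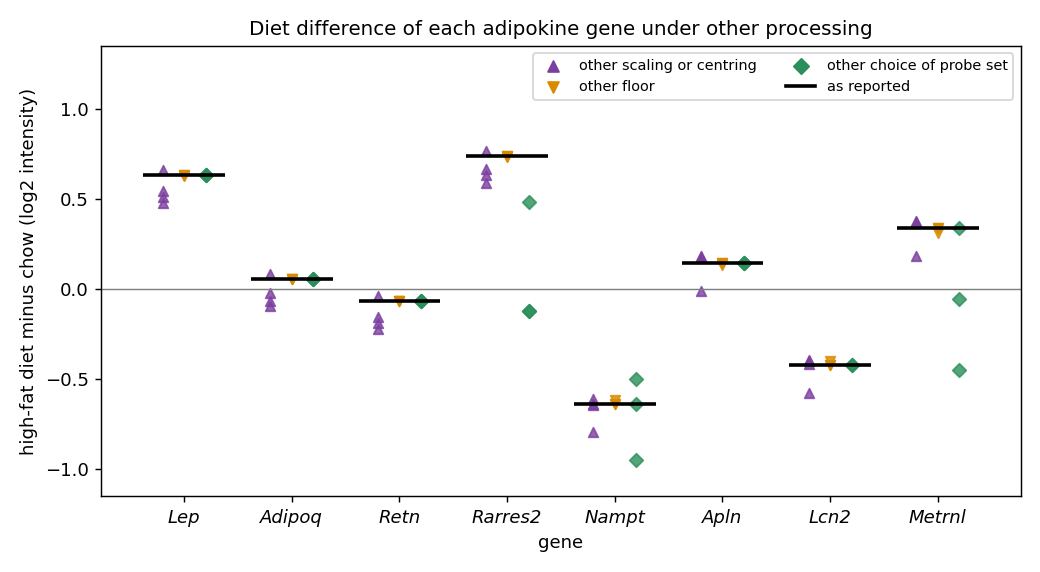
High-fat diet minus chow difference (log2 intensity) of each adipokine gene as reported (black line) and under up to 10 alternatives, 4 of scaling, 3 of the floor and 3 of the probe set. Lep stays above 0 and Nampt, Lcn2 and Retn below it, whereas Rarres2 and Metrnl cross 0 when another probe set stands for the gene, and Adipoq and Apln cross it under other scalings.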

How the data were processed

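The deposited table gives 1 linear intensity per probe set for 2 Affymetrix mouse arrays, 1 per diet, made from 10 µg of total RNA per the labels' protocols. How the authors summarised and scaled these intensities is not given in the sources used here; with 2% trimmed from each end, both arrays averaged 99.6. Values were used as deposited. Gene names came from the 2016 annotation of the platform, in which 34945 had 1 symbol, 932 several and 9160 none; 34741 matched RefSeq by gene ID. A gene was represented by its measured probe set with the highest mean log2 intensity. No test of the diet was possible. The adipokine genes, the related lists and the alternatives were chosen with earlier results of these data known. From each list the text names genes 2-fold or more different with probe sets of one direction, the highest and lowest difference, and 6 receptors. Other genes of the lists were named after their values were seen. They were Fabp4, Cdh13, Elane, Ctsg, F12, Stat5b, Ptpn11, Orm2, Retnla, Metrn and the C1q/TNF family. Reference genes for scaling were 16 housekeeping genes, 12 of them measured. Python 3.11.15 with pandas 2.3.3, numpy 2.4.6 and statsmodels 0.14.6 was used, and the counting was tested on simulated data. The number of arrays limits the precision.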

Additional observations from a re-analysis of the deposited data

How the results depend on the processing

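No paired analysis was possible because each diet had 1 array. The 2 counts for the adipokine genes and the medians of these genes and of the 7 lists of related genes were computed under up to 11 alternatives each, which gave 99 values. A count was taken as close within 1.5 times and a median within 0.32, the pooled probe set SD, and 97 values were. The tolerance is wide for medians near 0, and 10 of 80 medians were of the other sign. The 2 values that were not close were the number of genes past the size limit, which was 3 at 1.5-fold in place of 0 at 2-fold, and the number of higher probe sets, which was 3 in place of 6 with only plain probe sets, a setting that uses fewer of them and gives no value for Lcn2. For single adipokine genes, 6 of 79 values moved by more than the probe set SD of the gene's intensity band, all of them by the choice of probe set. Rarres2 was 0.49 with the mean of all probe sets and -0.12 with either the smallest difference or plain probe sets. Metrnl was -0.06 and -0.45 with the mean and with plain probe sets, and Nampt was -0.95 with the mean. The median of the 8 genes lay between -0.07 and 0.13 and was below 0 in 3 of 10 settings. Of 278 counts of 2-fold genes in the 14 lists of related genes and markers, 19 moved by more than 1.5 times, apart from the change of threshold. Mme was under 2-fold in 3 of 10 alternatives, Mmp9 in 2 and Pik3r1, Npy and Fgf21 in 1 each, while Klf15, Orm1, Agt and Sfrp5 stayed past it in all 10 and Sfrp5 ranged from 1.86 to 3.46. The median of neutrophil markers was 0.44 with the floor at the 60th percentile, which leaves 3 genes. The 2-fold count of mature adipocyte markers, which is Aqp7 alone, was 0 in 6 of 11 alternatives. Signals near the floor, such as the dim probe sets of Rarres2 and Metrnl, limit what their differences show.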
